A study of Sus scrofa with 4 samples.

Results

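Genes of the vessel wall and of leukocyte adhesion, 9 in all, were followed in the thymus of IL2RG-targeted and wild-type pigs: PECAM1, CDH5, VEGFA, SELE, SELP, VCAM1, ICAM1, ITGB3 and CD9. Every array probe whose RefSeq accession belonged to one of these genes was taken, which gave 19 probes for 9 of the 3020 genes that could be named on the array. Several probes read 6 of the genes and 1 probe each read SELP, VCAM1 and ICAM1. Probes of a gene are repeated readings of the same RNA and not replicates. All 19 probes were well above background on all 4 arrays.

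The study compared the thymus of KO pigs with that of WT pigs of the same breed, Minnesota miniature swine. The KO samples carried genotype IL2RG+/- with the allele mIL2RG+/Δ69-368, made with TALEN, and the WT samples were labelled wildtype. IL2RG encodes the common gamma chain shared by several interleukin receptors. The KO animals were obtained by somatic cell nuclear transfer from edited cells, and the KO arrays hold RNA of the 2 KO pigs that had kept a small thymus, so KO animals with no thymus are not represented. Each group held 2 single-colour Agilent arrays of total RNA. No age is given in the labels, and nothing says whether the WT arrays came from different animals, so p-values measure only the spread between these samples, which for WT may be technical.

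Leukocytes leave the blood by rolling on selectins, arresting on integrin ligands of the immunoglobulin family and passing between endothelial cells that are held together by VE-cadherin and PECAM-1. Inflammatory cytokines such as TNF and IL-1 induce E-selectin, VCAM-1 and ICAM-1 on endothelium through NF-kB, whereas P-selectin is also stored in endothelial and platelet granules. In the thymus the same molecules serve the entry of blood-borne progenitors, and VCAM-1 and ICAM-1 are also carried by epithelial and dendritic cells of the stroma.

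The arrays had similar quality. Between 67.9% and 74.5% of probes were well above background, with the KO arrays (74.5% and 73.5%) above the WT arrays (67.9% and 68.1%), and no spot was saturated. Levels are given as log2 signal relative to the 75th percentile of each array, and a probe was called when its limma adjusted p was below 0.05 and its change was at least 2-fold. For IL2RG itself, the KO arrays read -3.15 and -3.29 on the brighter probe and the WT arrays -0.13 and 0.52, a called decrease (log2 difference -3.41, SE 0.27, adjusted p = 0.00256). Markers of other cells moved too. The summed signal of 13 thymocyte markers, in multiples of the 75th percentile, was 37.5 and 36.6 in KO against 229 and 310 in WT, and all 13 were called lower. The 8 macrophage markers summed to 283 and 352 in KO against 71.6 and 55.6 in WT and were all called higher, as were 5 of 6 fibroblast markers (235 and 296 against 86.8 and 54.5) and 3 of 4 thymic epithelium markers (233 and 222 against 71.7 and 48.1). The epithelial sums rest mostly on KRT8, the brightest of the 4 (7.61 and 7.54 in KO, 5.65 and 4.76 in WT, in log2). EPCAM was not called (log2 difference 0.37), and neither was any of its 16 tested probes. Endothelial markers outside the 9 genes, of which 4 could be read, summed to 13.1 and 14.7 in KO and to 5.14 and 3.41 in WT, with VWF, CLDN5 and NOS3 called higher and ENG not called. A wider list of 15 endothelial identity genes, these 4 included, summed to 41.8 and 53.4 in KO and 34.7 and 37.6 in WT. Of the 15, 7 were called higher, 1 (THBD) was called lower and 7 were not called. THBD had the highest reading of the 15 on both WT arrays (3.99 and 4.60 in log2, against 2.15 and 2.07 in KO). It therefore weighs most in the WT sums of this list.

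Of the 19 probes, 15 were called higher in KO thymus, none lower, and 4 were not called. Over all 31959 probes tested, 34.0% were called, 21.0% higher and 13.0% lower. Among the 19 probes no probe lay lower in KO at an unadjusted limma p under 0.05, and the methods' t-test found 0 as well. The median log2 difference of the 19 probes was 2.00, against -0.06 for all probes tested. Both KO arrays lay above both WT arrays for 18 probes, which was so for 37.7% of all probes. In none did both lie below, as in 41.0% of all probes, and the remaining probe, the brighter one of ITGB3, had overlapping groups. Every gene had at least 1 probe called higher, and in 7 genes every probe was. The share of all named genes meeting either rule was not computed. Both counts depend on the number of probes, and 3 of these 7 genes had 1 probe. Read by the brightest probe alone, 7 of the 9 genes were higher and 2 (ITGB3 and CD9) were not called, beside 25.2% of all named genes called higher. In whole tissue, more cells of a type and more RNA per cell cannot be told apart. The part that the shift in thymocyte, macrophage, fibroblast and epithelial markers had in these differences was not tested.

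**Figure D1:**
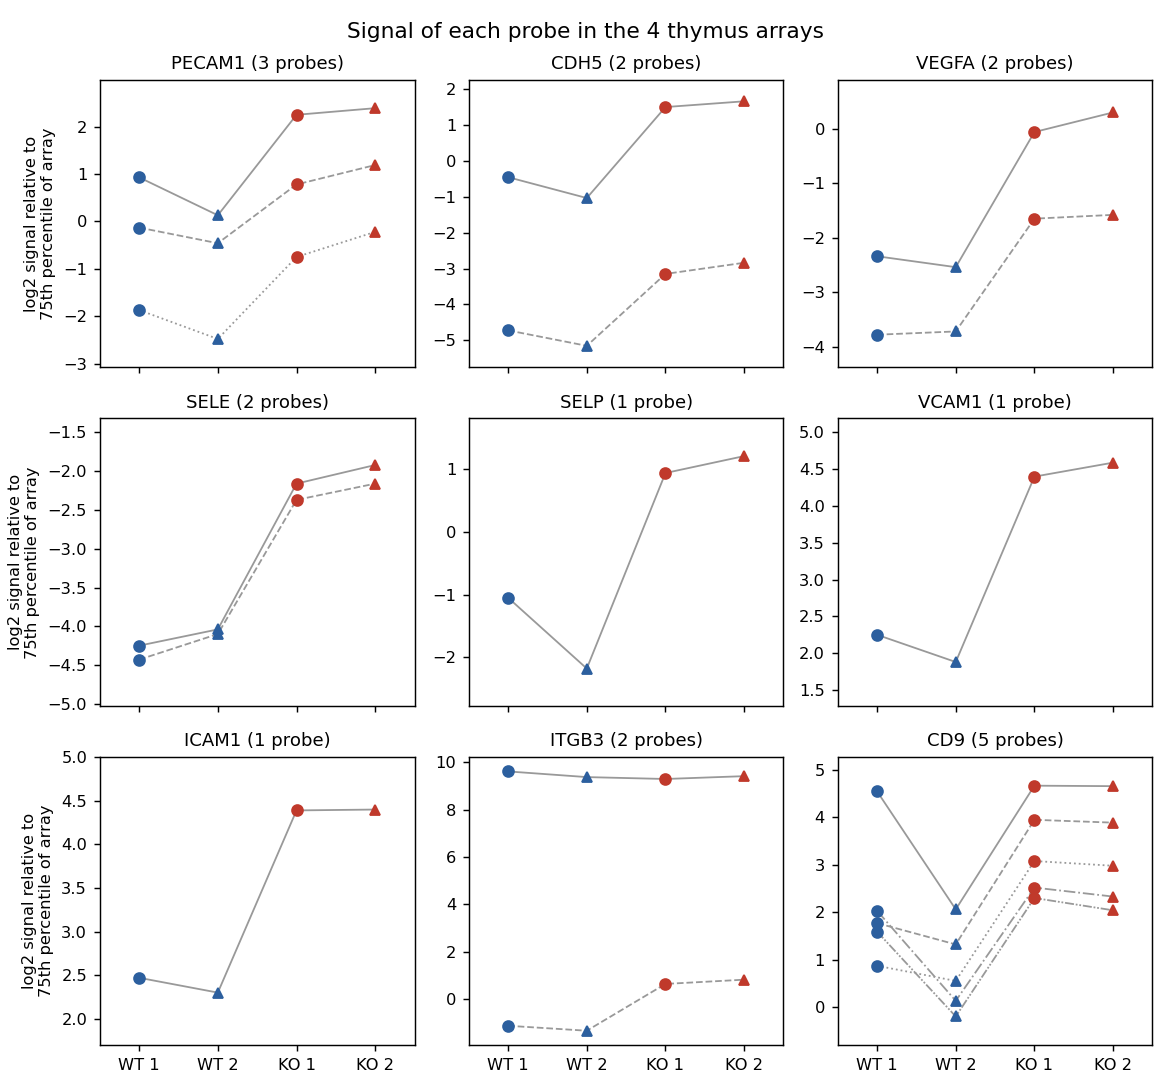
Level of each of the 19 probes on the 4 arrays, one panel per gene, as log2 signal relative to the 75th percentile of the array; each line joins the readings of 1 probe and the vertical scale differs between panels. The KO readings lie above the WT readings for every probe except the brighter ITGB3 probe, and 3 CD9 probes have a high reading on WT replicate 1.

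PECAM1 and CDH5 hold endothelial cells to each other. PECAM1 (CD31) also lies on platelets and on several leukocytes, while CDH5 (VE-cadherin) is the adhesive protein of endothelial adherens junctions. The brightest PECAM1 probe read 2.25 and 2.39 in KO and 0.93 and 0.13 in WT. The groups did not overlap, although the WT arrays stood 0.79 apart, and the KO level was 3.46-fold higher (log2 difference 1.79, SE 0.31, adjusted p = 0.0127). The second PECAM1 probe read 0.78 and 1.19 in KO against -0.13 and -0.46 in WT, a 2.42-fold difference (adjusted p = 0.0143). On the dimmest PECAM1 probe, KO arrays at -0.75 and -0.22 stood above WT arrays at -1.87 and -2.48, a 3.23-fold difference (adjusted p = 0.0146). All 3 probes thus pointed one way, with the smallest changes and the largest adjusted p-values among the called probes. Without KO replicate 2 the log2 differences of the 3 PECAM1 probes were 1.72, 1.07 and 1.43 (brightest first), of similar size but not called (adjusted p = 0.0676, 0.097 and 0.0767). Without KO replicate 1 they were 1.86, 1.48 and 1.96, and the brightest was not called (adjusted p = 0.0554). The SE of the brightest probe was 0.45 in both of these fits, against 0.31 with all 4 arrays.

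CDH5 showed a larger difference. Its brighter probe read 1.49 and 1.65 in KO and -0.46 and -1.04 in WT, with no overlap, and was 4.99-fold higher in KO (log2 difference 2.32, SE 0.25, adjusted p = 0.00444). The dimmer CDH5 probe read -3.15 and -2.84 in KO and -4.72 and -5.15 in WT, with a 3.83-fold difference (adjusted p = 0.00552). It was a faint probe, with a spot only 2.41 and 2.48 times its local background on the WT arrays, and a normexp background correction lowered its log2 difference from 1.94 to 0.67, which was not called.

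VEGFA encodes the main growth factor of endothelium, which is made by many other cells, among them macrophages and epithelium, and raised by hypoxia. Its brighter probe read -0.06 and 0.30 in KO and -2.34 and -2.54 in WT. Arrays of a genotype lay close together and the genotypes far apart, so that VEGFA was 5.90-fold higher in KO (log2 difference 2.56, SE 0.20, adjusted p = 0.00256). The second probe gave -1.65 and -1.58 in KO and -3.78 and -3.72 in WT, with a 4.41-fold difference with the smallest adjusted p of the 19 probes (0.00228). Normexp correction lowered this second difference from 2.14 to 1.25 on the log2 scale, and it was still called.

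The endothelial selectins bind sialylated glycans on leukocytes. SELE (E-selectin) is made by endothelium after cytokine exposure. Its brighter probe read -2.16 and -1.92 in KO and -4.25 and -4.04 in WT, with a 4.31-fold difference without overlap (log2 difference 2.11, SE 0.18, adjusted p = 0.00296). The other SELE probe read -2.37 and -2.16 in KO and -4.43 and -4.10 in WT, 4.01-fold higher in KO (adjusted p = 0.00375). Both SELE probes were dim in WT, where the brighter one had deposited signals of 32.6 and 42.1 against 171 and 184 in KO, and normexp correction lowered the log2 differences to 1.13 and 1.04, still called. SELP (P-selectin), stored ready-made in endothelial and platelet granules, had the largest difference of the 19 probes. It read 0.94 and 1.21 in KO and -1.05 and -2.18 in WT, 6.46-fold higher in KO (log2 difference 2.69, SE 0.42, adjusted p = 0.00987). The WT arrays differed by more than 2-fold from each other, and leaving out 1 array at a time gave log2 differences between 2.12 and 3.26, with adjusted p at most 0.0472. The 3 markers of megakaryocytes and platelets that could be tested were not called, and their summed signal was 1.51 on both KO arrays and 1.81 and 1.89 on the WT arrays. At an unadjusted p under 0.05 limma found 0 of these 3 and the methods' t-test 1, lower in KO. The dimmest of the 3 adds little to the sum. It read -3.23 and -6.37 on WT replicates 1 and 2 and was well above background on only 3 arrays.

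VCAM1 and ICAM1, the immunoglobulin-family ligands on which integrins of leukocytes arrest, were both higher in KO, with KO arrays close together and far from both WT arrays. VCAM1, which binds integrins with the alpha-4 chain, read 4.40 and 4.59 in KO and 2.25 and 1.88 in WT. That was a 5.38-fold higher KO level (log2 difference 2.43, SE 0.20, adjusted p = 0.00279), and differences stayed between 2.24 and 2.61 when any 1 array was left out. ICAM1, the ligand of LFA-1 and Mac-1, read 4.39 and 4.40 in KO and 2.47 and 2.30 in WT, 4.02-fold higher in KO (log2 difference 2.01, SE 0.16, adjusted p = 0.00255). Leaving out 1 array moved ICAM1 only between 1.93 and 2.09.

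**Figure D2:**
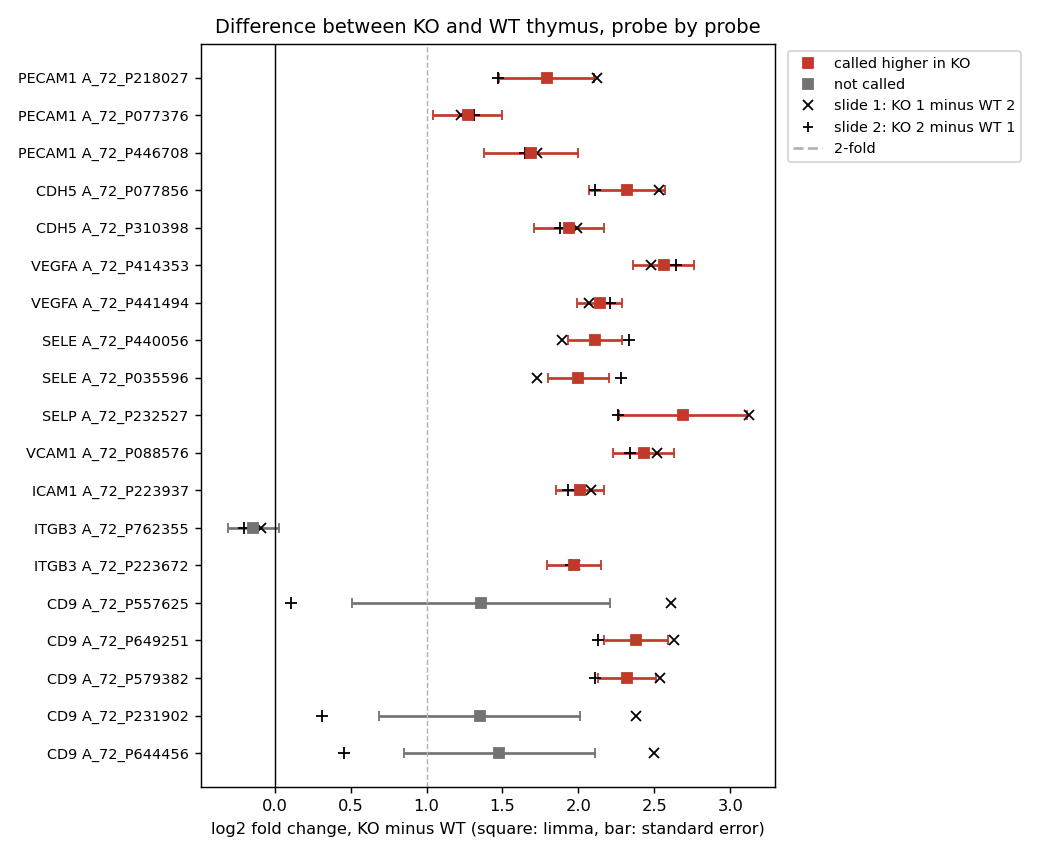
KO minus WT difference in log2 signal for each of the 19 probes with its standard error from the limma fit (square and bar), and the difference on each of the 2 slides (crosses), which held 1 KO and 1 WT array each. Called probes run from 1.27 to 2.69; for 3 CD9 probes the slides stand far apart.

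ITGB3 gave discordant readings. The gene encodes the beta-3 integrin chain, which pairs with alpha-IIb on platelets and with alpha-V on endothelium, macrophages and osteoclasts. The brighter probe read 9.30 and 9.42 in KO and 9.62 and 9.38 in WT, with overlapping groups and a log2 difference of -0.14 (SE 0.17, adjusted p = 0.536). This probe was one of the brightest on the array, with only 2 tested probes above it, and its deposited signals ran from 463663 to 488993 without being marked as saturated. Its small difference also changed sign, to 0.02, under quantile normalisation and in the deposited log2 values. The second ITGB3 probe read 0.63 and 0.81 in KO and -1.14 and -1.35 in WT, 3.91-fold higher in KO (log2 difference 1.97, SE 0.18, adjusted p = 0.00312), and its difference was alike on both slides (1.98 and 1.95). The probes carry the same gene name but did not report the same change, so no single value is given for ITGB3.

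CD9, a tetraspanin of platelets, endothelium, epithelium and many leukocytes that organises integrins and other partners in the membrane, had 5 probes, of which 2 were called. The brighter of these read 3.95 and 3.89 in KO and 1.77 and 1.32 in WT, 5.19-fold higher in KO (log2 difference 2.38, SE 0.21, adjusted p = 0.0031), and the other read 3.08 and 2.98 against 0.87 and 0.55 (log2 difference 2.32, adjusted p = 0.00265). On the other 3 probes the KO arrays lay close together and the WT arrays far apart. The brightest CD9 probe read 4.67 and 4.66 in KO, 4.55 on WT replicate 1 and 2.06 on WT replicate 2. It was not called (log2 difference 1.36, SE 0.85, adjusted p = 0.248), nor were the 2 further probes, which read 2.03 and 1.59 on WT replicate 1 and 0.13 and -0.20 on WT replicate 2 (adjusted p = 0.159 and 0.118). For all 3, WT replicate 1 lay above WT replicate 2 by 1.79 to 2.48, and 1.38% of all tested probes had a gap of 1.79 or more in that direction. Without WT replicate 1 the 3 probes had log2 differences of 2.60, 2.29 and 2.37, and without WT replicate 2 they had 0.12, 0.40 and 0.58. A fit with 1 WT array holds no spread between WT samples, so neither fit can say which WT array is typical. Over the mean of its 5 probes CD9 was higher in KO (log2 difference 1.78, SE 0.49, adjusted p = 0.0421).

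The KO arrays lay closer together than the WT arrays, over the 19 probes and over all probes alike. On the 19 probes the KO arrays differed by a median of 0.18 (log2) and at most 0.53, and the WT arrays by a median of 0.37 and at most 2.48. Over all probes tested the medians were 0.16 and 0.30. The WT gap was the larger in 15 of the 19 probes, beside 68.6% of all probes tested. WT replicate 1 stood above WT replicate 2 in 16 of the 19 probes, where 49.8% of all probes did, and KO replicate 2 stood above KO replicate 1 in 14 (50.2% of all probes). WT replicate 1 thus lay nearer to the KO arrays than WT replicate 2 did for most of these genes. The same order held for the macrophage and fibroblast sums given above and for the 4 other endothelial markers (5.14 on WT replicate 1 and 3.41 on WT replicate 2). The sum of the wider list of 15 endothelial identity genes did not show this order (34.7 on WT replicate 1 and 37.6 on WT replicate 2). In WT the brightest gene of that list was THBD, which was lower in KO. For THBD too, WT replicate 1 (3.99) lay nearer to the KO arrays (2.15 and 2.07) than WT replicate 2 (4.60).

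**Figure D3:**
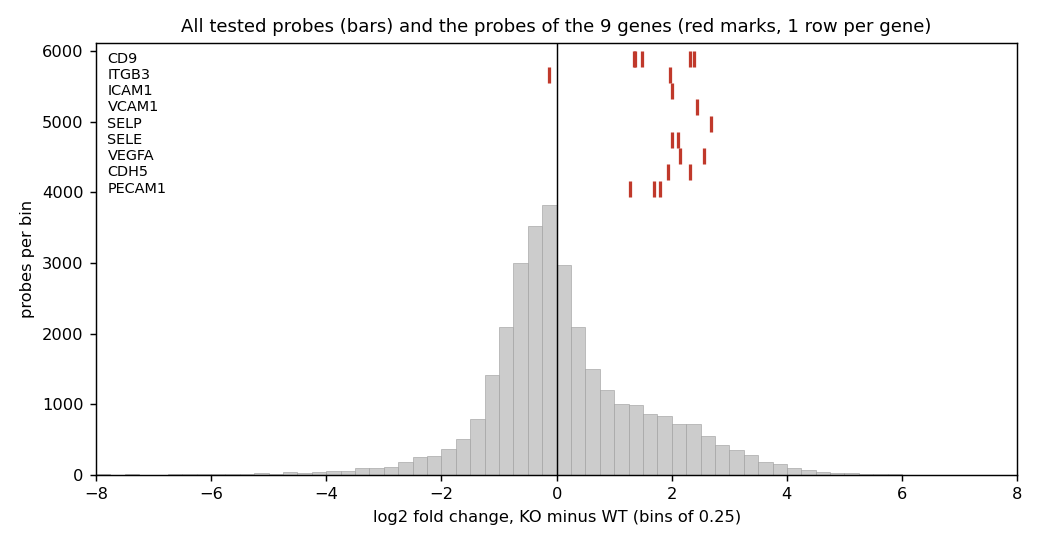
Distribution of the KO minus WT log2 difference over all 31959 probes tested, as probe counts per bin, with the 19 probes of the 9 genes marked. The 15 called probes lie between 1.27 and 2.69, and the median of all probes is -0.06.

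The genes around these molecules were read by their brightest probe. Of 75 tested genes in 7 lists, 29 were higher in KO and 5 lower (25.2% and 12.6% of all named genes), with a median log2 difference of 0.56 against 0.00 for all named genes. EDN1, F11R, P2RY12 and ANGPT1 were called higher but passed the filter on dim probes without being well above background on every WT array, and with only probes above background on all 4 arrays 26 genes were higher and 5 lower. In that fit the junction list had 4 higher genes, the VEGF list 2 and the platelet list 2. Of the 34 calls, 16 were lost without KO replicate 1, 17 without KO replicate 2, and 2 and 4 without the WT replicates.

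Among endothelial identity genes, 7 of 15 tested genes were higher, 1 was lower and 7 were not called (median 1.47). AQP1, a water channel of capillary endothelium, read -2.33 and -1.93 in KO and -4.32 and -4.49 in WT (log2 difference 2.27, SE 0.21, adjusted p = 0.00325). It was a dim probe, and normexp correction lowered the difference to 1.20, still called. VWF, the carrier of factor VIII stored beside P-selectin, read 3.20 and 3.30 in KO and 1.43 and 0.60 in WT (2.23, SE 0.32, adjusted p = 0.00805). The caveolar protein CAV1 differed by 2.18 (SE 0.42, adjusted p = 0.0168) and was not called without KO replicate 2 (1.83, adjusted p = 0.0729). ACKR1, the chemokine receptor of venules, differed by 2.27 (SE 0.43, adjusted p = 0.0159) and, at differences of 2.39 and 2.15, was not called without KO replicate 1 (adjusted p = 0.0552) or KO replicate 2 (0.0711). The exception was THBD, the thrombin receptor thrombomodulin, also made by monocytes. THBD read 2.15 and 2.07 in KO and 3.99 and 4.60 in WT, lower in KO on all 3 of its probes (log2 difference -2.18, SE 0.26, adjusted p = 0.00517). ENG (0.46) did not pass the test. CD34, a sialomucin of endothelium and progenitors, narrowly missed it (log2 difference 1.47, adjusted p = 0.054), with 2 of its 3 probes called higher. CD34 was called with slide as a block (adjusted p = 0.0226), with normexp correction (0.0196), quantile normalisation (0.0488), the deposited log2 values (0.0415), an intensity trend (0.035) or probes above background on all 4 arrays (0.0446), and without WT replicate 1 (2.06, adjusted p = 0.00539).

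The leukocyte partners of these ligands gave 1 higher gene of 6 tested and none lower (median 0.13). The higher gene was SELPLG, the P-selectin ligand PSGL-1, at -3.23 and -3.39 in KO and -5.05 and -4.96 in WT (log2 difference 1.69, SE 0.16, adjusted p = 0.00346). Normexp correction reduced it to 0.55, not called. The chains of the ICAM-1 receptor LFA-1 were not called, with ITGAL at 0.17 and ITGB2 at -0.25 (adjusted p = 0.303). ITGB1, the partner of alpha-4 in the VCAM-1 receptor, differed by 0.56 (adjusted p = 0.0419), under the 2-fold limit.

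Of the other junction and adhesion molecules, 5 of 10 were higher and 1 lower (median 0.87). MADCAM1, the addressin bound by alpha-4 beta-7 integrin, read 1.31 and 1.37 in KO and -0.25 and -0.31 in WT, the same difference on both slides (log2 difference 1.62, SE 0.15, adjusted p = 0.00331). The tight-junction genes CLDN5 (1.49, adjusted p = 0.0235) and OCLN (1.41, adjusted p = 0.00712) were higher, and each lost its call without KO replicate 1 or 2, at similar differences (CLDN5 1.58 and 1.41 with adjusted p = 0.0834 and 0.109, OCLN 1.42 and 1.39 with adjusted p = 0.0537 and 0.0579). So was JUP (plakoglobin, 1.40, adjusted p = 0.00556), which lost its call without KO replicate 1 (1.35, adjusted p = 0.0529). ICAM3, an LFA-1 ligand of resting lymphocytes, went the other way, at 2.15 and 2.25 in KO and 3.57 and 3.63 in WT (log2 difference -1.40, SE 0.15, adjusted p = 0.00453). Of the 2 ICAM3 probes, 1 was called lower. ICAM2 also read lower in KO, at 1.28 and 1.47 against 1.99 and 2.20 in WT. Its log2 difference (-0.72, SE 0.18, adjusted p = 0.0312) was under the 2-fold limit. No fold is given for F11R, EDN1 or P2RY12, which were not well above background in WT.

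**Figure D4:**
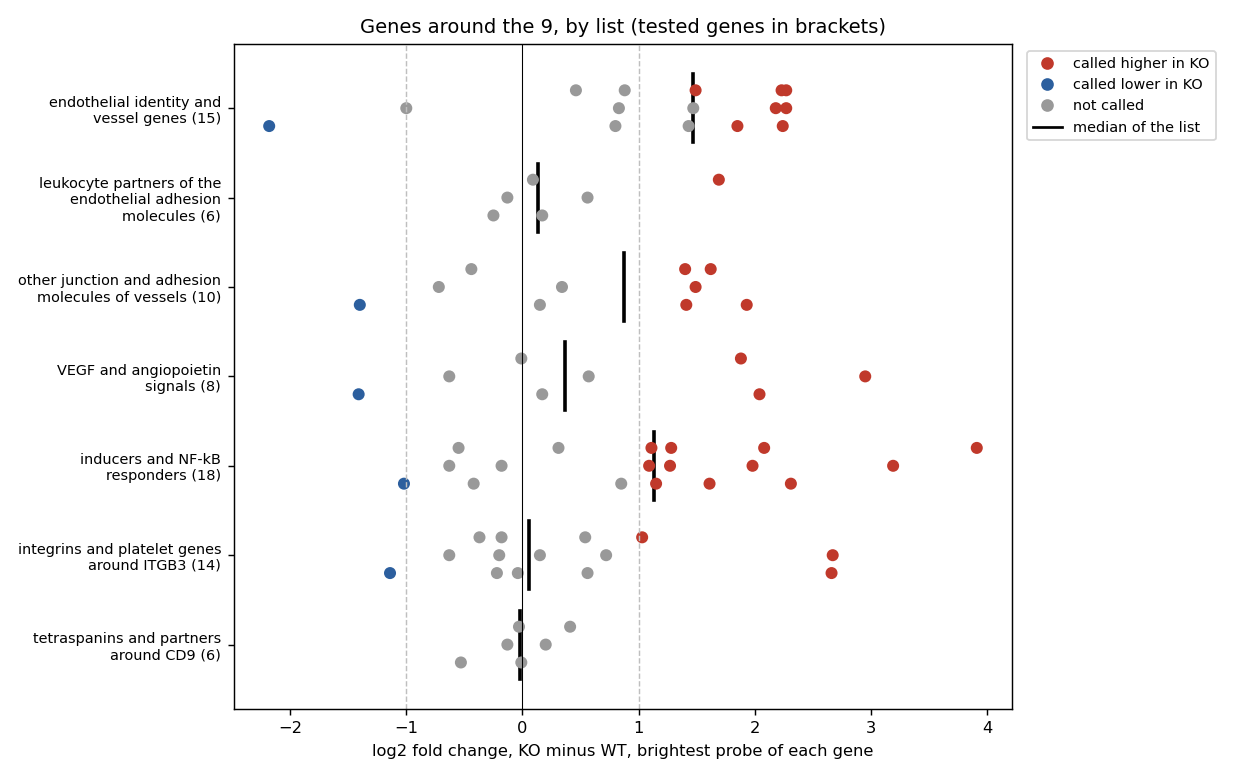
KO minus WT log2 difference of each tested gene of the 7 lists, read by its brightest probe, with called and uncalled genes marked and the list median drawn. Medians run from -0.02 for tetraspanins to 1.47 for endothelial identity genes.

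Around VEGFA, 3 of 8 tested genes of VEGF, angiopoietin and hypoxia signalling were higher and 1 was lower (median 0.37). EPAS1, the hypoxia-inducible factor prominent in endothelium, read 0.14 and 0.30 in KO and -1.73 and -1.91 in WT (log2 difference 2.04, SE 0.17, adjusted p = 0.00275). ADM, the vasodilator adrenomedullin, differed by 1.88 (SE 0.27, adjusted p = 0.00804). HIF1A (0.57) and ANGPT2 (0.17) were not called. LDHA, a glycolytic enzyme that hypoxia raises, was lower in KO (log2 difference -1.41, SE 0.18, adjusted p = 0.00651) and lost its call without KO replicate 1 (-1.32, adjusted p = 0.057).

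Inducers of the selectins and ligands, and other NF-kB responders, were the list with most calls, with 11 of 18 higher and 1 lower (median 1.13). The 4 largest were IFNG (log2 difference 3.91), the monocyte attractant CCL2 (3.19), the cytokine IL1A (2.31, SE 0.21, adjusted p = 0.00321) and the neutrophil attractant CXCL2 (2.08, SE 0.19, adjusted p = 0.00325). Normexp correction lowered IFNG to 1.68 and IL1A to 1.32, both still called. Of the 2 TNF probes, 1 was called higher. TNF, read at 1.50 and 1.73 in KO and 0.08 and 0.85 in WT, was just past the limits (1.15, adjusted p = 0.0386) and missed them without KO replicate 1 or 2 (1.27 and 1.04, adjusted p = 0.114 and 0.172), without WT replicate 1 (0.77), with slide as a block (adjusted p = 0.0565), under median scaling (0.90) and with no filter on dim probes (adjusted p = 0.0632). TNFAIP3, which encodes an inhibitor of NF-kB, was the lower gene (-1.02, adjusted p = 0.0351), and its call was lost without KO replicate 1 (-1.14, adjusted p = 0.113), KO replicate 2 (-0.90, adjusted p = 0.181) or WT replicate 2 (-0.72), with the replicate block (adjusted p = 0.0649), with no filter on dim probes (0.0595), and, with under 2-fold changes, under quantile normalisation and normexp correction (-0.94). The inhibitor NFKBIA (0.31) was not called. Nor was the other IL-1 gene, IL1B, whose difference was under 2-fold (0.85, SE 0.17, adjusted p = 0.0174).

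Among integrins and platelet genes, the companions of ITGB3, 3 of 14 were higher, 1 was lower and 10 were not called (median 0.05). The higher count was unsteady, at 5 by the mean of a gene's probes, 1 without KO replicate 1 or WT replicate 2, 0 without KO replicate 2, 4 without WT replicate 1, and 1 with normexp correction, the deposited log2 values or no filter on dim probes. THBS1 (thrombospondin-1) was counted as not called by its brightest probe (-0.04) while 5 of its 6 probes were called higher. ITGAV, the alpha-V partner of beta-3, read 1.03 on both KO arrays and 2.04 and 2.31 in WT, lower in KO on all 5 of its probes (log2 difference -1.14, SE 0.17, adjusted p = 0.00926), and at -1.14 and -1.15 its call was lost without KO replicate 1 or 2 (adjusted p = 0.0764 and 0.0799). ITGA2B, the platelet partner, was not called (-0.37, adjusted p = 0.119). CD36, the thrombospondin receptor of platelets, macrophages and capillaries, read 3.14 and 4.52 in KO and 1.71 and 0.63 in WT (log2 difference 2.66, SE 0.61, adjusted p = 0.026) and lost its call without KO replicate 2 (1.97, adjusted p = 0.0752) or WT replicate 2 (2.12, adjusted p = 0.0586). ITGA2, the collagen receptor chain, was just past the limits (1.03, adjusted p = 0.0395) and lost its call without KO replicate 1 (1.29, adjusted p = 0.073), KO replicate 2 (0.76, adjusted p = 0.204) or WT replicate 2 (0.80, adjusted p = 0.0844), with the replicate block (0.0757), with no filter on dim probes (0.0655), and under quantile normalisation, median scaling, normexp correction and the deposited log2 values (log2 differences of 0.37 to 0.87). Among tetraspanins and their partners, the companions of CD9, none of 6 tested genes was called by limma (median -0.02), with 1 of them, ADAM10, lower at an unadjusted p under 0.05 by limma and 1 by the methods' t-test. CD81, a tetraspanin related to CD9, read 4.54 and 4.55 in KO and 4.44 and 4.71 in WT (log2 difference -0.03, SE 0.17, adjusted p = 0.904).

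**Figure D5:**
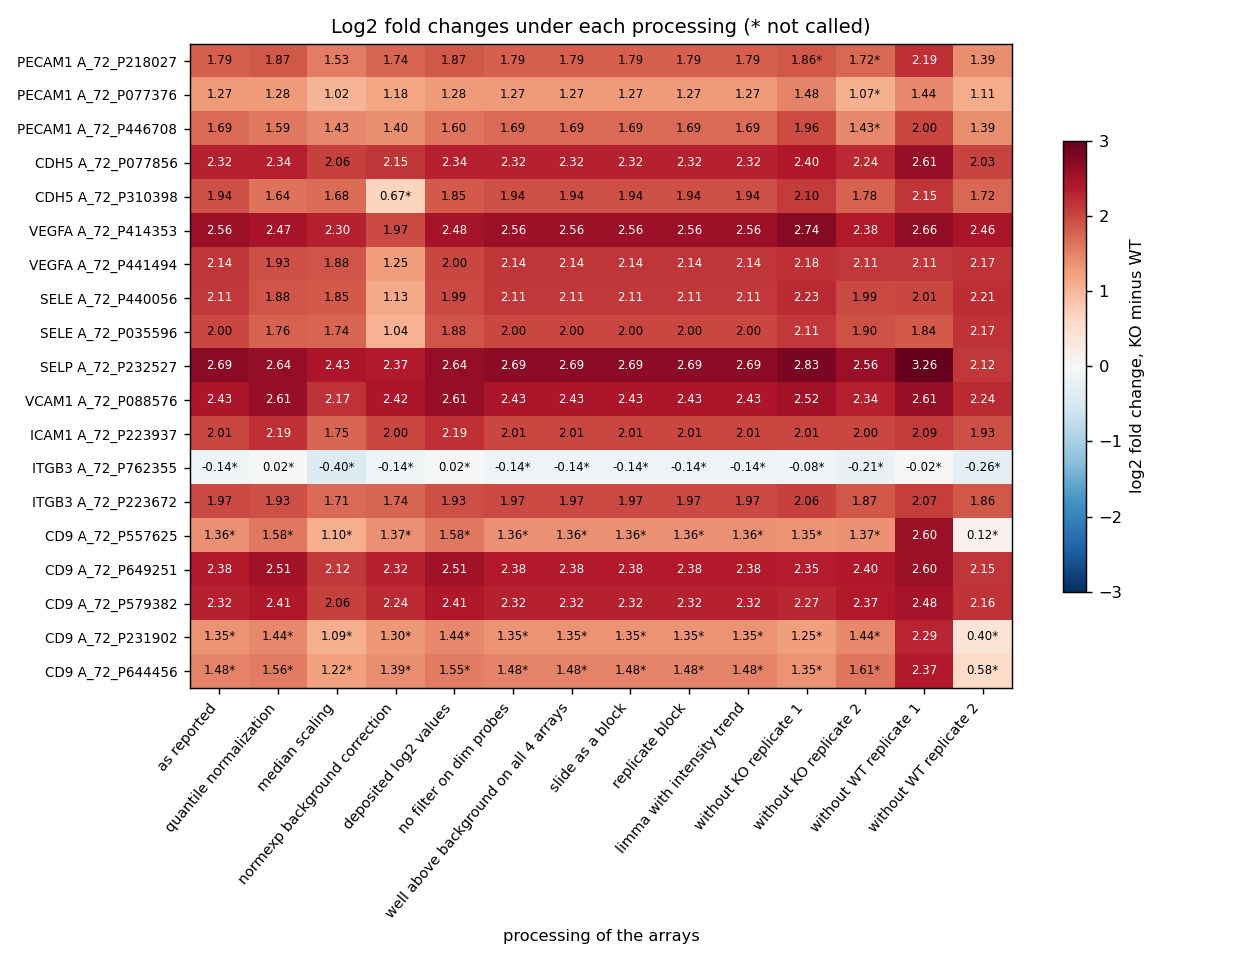
KO minus WT log2 difference of each of the 19 probes (rows) under each way of processing the arrays (columns), printed in the cell and shown as colour, with an asterisk where the probe was not called. The methods' t-test, under which most calls were lost after adjustment, and the mean of a gene's probes are not shown. Under normexp correction 1 call was lost. Without WT replicate 1 the 3 uncalled CD9 probes had log2 differences of 2.60, 2.29 and 2.37.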

How the data were processed

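Total RNA of 2 KO and 2 WT thymus samples was labelled with Cy3 and hybridised to 4x44K porcine Agilent arrays. The authors extracted intensities with Agilent Feature Extraction (11.0.1.1). The deposited scanner files give the background-subtracted processed signal intensity per spot. The deposited table gives log2 values of 27970 probes, in which each array has a median of 8.49. Pearson r with the log2 scanner signal was at least 0.9998 across probes. The deposited values are not a plain shift of each array, since log2 differences moved by unequal amounts between probes. The study's methods mention Cy3 and Cy5, but the deposited files hold 1 channel.

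Control spots and outlier spots were left out (43597 probes kept), processed signals were divided by the 75th percentile of each array, and log2 was taken. Testing with limma (3.58.1, R 4.3.3) compared KO with WT without covariates, over the 31959 probes that the deposited 0/1 flags marked as well above background in every array of KO, of WT or of both, with Benjamini-Hochberg adjustment over all of them. A call needed an adjusted p under 0.05 and a 2-fold change. An exact permutation test of 2 against 2 arrays cannot go below 0.333 two-sided. The number of arrays limits the precision. Accessions were matched without versions to RefSeq (6684 probes, 3020 genes). A gene with several probes was read probe by probe if it was among the 9, and otherwise by its brightest probe (mean over arrays). The script was tested on simulated data.

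The 9 genes, the gene lists and the tests were chosen with earlier results of these data known. Named in the text were the 9 genes, IL2RG, the 4 called genes of each list with the largest change (above background in every array), called genes against the direction of most of their list, and, for each of the 9, the 2 genes of most similar pattern; uncalled genes, TNF, NOS3, EDN1, F11R, P2RY12, ANGPT1 and the neighbouring genes were named after their values were seen. Marker lists of thymocytes, macrophages, fibroblasts, thymic epithelium, endothelium and platelets are given in the report; of pericyte and smooth muscle markers 3 of 5 were higher and none lower, of B cell markers 1 of 4 was higher and 3 were lower, and no erythroid marker could be read. Alternatives were quantile normalisation, median scaling, normexp (offset 50, on the median spot intensity) as background correction, the deposited log2 values, other filters, slide and replicate blocks, an intensity trend, the methods' t-test, the mean of a gene's probes and leaving out each array. Promoter sequences were not analysed here, and 1 gene of the lists is counted but not reported by name.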

Additional observations from a re-analysis of the deposited data

How the results depend on the processing

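Of 304 values of the 19 probes under 16 alternatives, 265 kept direction and call, 34 lost a call, 3 gained one and 2 reversed, both for the brighter ITGB3 probe (0.02 under quantile normalisation and 0.02 in the deposited log2 values). These 2 alternatives also gave equal log2 differences for VCAM1 (2.61) and ICAM1 (2.19), so they are not independent. Under the methods' t-test with Bonferroni adjustment the counts were 0 of 19 probes, 0 of 9 genes, and 0 higher and 0 lower list genes, where unadjusted it called 14 probes; with Benjamini-Hochberg adjustment they were 2 probes, 1 gene, 5 higher and 1 lower. Leaving out 1 array gave 12 to 18 probes and 6 to 8 genes higher (none lower), and 14 to 31 higher and 2 to 5 lower list genes. Median scaling moved the median log2 difference of all probes from -0.06 to -0.32, and all 19 probes kept direction and call. Same-numbered arrays deviated apart (r = -0.29). The slide pairing is the crossed pairing, and with 2 arrays per group it must give the same value with the sign changed (r = 0.29). The 2 values are therefore 1 observation. The replicate block gave 15 of 19 probes and 7 genes higher, as did the slide block, with 28 and 30 list genes higher. A lone array left in a group was assumed to vary like the other group. Having 2 arrays per group and spots near local background (CDH5, SELE and VEGFA dim probes) limits these readings; the cause of the lost calls was not tested.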

Other observations

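In the order of protein-coding genes of the RefSeq annotation of Sscrofa11.1, SELP is next to F5, which encodes coagulation factor V and differed by 2.03 (log2) without passing the test (SE 0.72, adjusted p = 0.0783). CD9 is next to VWF (2.23, higher). VCAM1 is next to EXTL2, a glycosyltransferase gene, which was higher by a smaller difference (1.15, SE 0.20, adjusted p = 0.0132), and CDH5 lies 2 genes from another cadherin gene, CDH11, also higher (2.50, SE 0.33, adjusted p = 0.00655).

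Likeness of pattern was measured as the Euclidean distance between the 4 log2 readings of brightest probes, each centred on its mean, over 2701 other named genes. It is a description over 4 arrays in 2 groups, so any gene with a similar difference and similar gaps comes close. The nearest genes were SERPINF1 (0.08) and TYROBP (0.11) for PECAM1, LAG3 (0.09) and IL4 (0.11) for CDH5, and SERPINH1 (0.14) and CCL3L1 (0.19) for VEGFA. For SELE they were CXCL2 (0.05) and IL18 (0.10), for SELP FCGR1A (0.03) and KAZALD1 (0.08), for VCAM1 CCL3L1 (0.05) and FAS (0.09), and for ICAM1 DBNDD1 (0.04) and IL6ST (0.05). The brightest ITGB3 probe was nearest to TM2D2 (0.05) and PGA5 (0.06). The brightest CD9 probe was nearest to CYP2C42 (0.14) and VNN1 (0.19), which shared its gap between the WT arrays, with WT replicate 1 above WT replicate 2 by 2.38 and 2.49 against 2.48 for CD9.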
